A study of Drosophila melanogaster with 3 samples.

Results

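The members described here are the microRNA genes of Drosophila melanogaster, taken as every noncoding gene of build dm6 whose symbol starts with mir- or is that of let-7. The rule found 262 genes among 17817 annotated genes, and 260 of them lie on the chromosome arms. The remaining 2 lie on the ribosomal DNA unit and could not be scored. Members on the same arm with 10 kb or less between neighbours were counted once as a cluster, which gave 198 clusters on the arms. The assay was ChIP-seq, in which chromatin pulled down with a protein is sequenced. That protein was CG8119, fused to enhanced green fluorescent protein (eGFP) and recovered through the tag with an anti-GFP antibody. The material was whole prepupae of the strain CG8119-GFP at an age of 1 day. That strain carries an insertion aimed at CG8119, the labels call the flies transgenic, and sex was not collected. There is 1 group of 3 biological replicates from 1 donor strain, and neither an untagged strain nor an input library was analysed here. A peak therefore marks only a place where fragments piled up in the pull-down. It does not show that a nearby gene is regulated, and in whole animals the cells in which the protein sat there are unknown.

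MicroRNAs are short RNAs that guide Argonaute proteins to messenger RNAs, which are then silenced. A long primary transcript, often a noncoding RNA or the transcript of a host gene in whose intron the hairpin sits, is trimmed by Drosha and Pasha in the nucleus and by Dicer in the cytoplasm. The start of the primary transcript can lie far from the hairpin, and for this reason a peak at a hairpin and a peak at a host's start are given separately here. Target choice depends mostly on the seed, the bases at positions 2 to 8 of the mature RNA. In flies, microRNAs are known to act in growth, cell death, muscle, the nervous system and the timing of metamorphosis, the process under way in prepupae.

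The mature sequences of 9 microRNAs are shown as a selection. Their genes lie at some of the stronger shared loci described below, or belong to a seed family whose members all had a shared locus. The loci of that family, which includes miR-92a and miR-92b, were of middling signal, with mean percentiles from 43.1% to 55.7%. Some stronger loci, such as that at mir-9377, have no sequence here. The sequences come from RefSeq on Release 6 of the genome, the build called dm6. They are written as RNA, from the 5′ end, with the seed in capitals. RefSeq held mature products for all 260 genes on the arms.
miR-279-3p: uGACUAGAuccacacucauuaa
miR-996-3p: uGACUAGAuuucaugcucgucu
miR-282-5p: uAGCCUCUacuaggcuuugucugu
miR-965-3p: uAAGCGUAuagcuuuuccccuu
miR-276a-3p: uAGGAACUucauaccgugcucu
miR-274-5p: uUUGUGACcgacacuaacgggua
bantam-3p: uGAGAUCAuuuugaaagcugauu
miR-92a-3p: cAUUGCACuugucccggccuau
miR-92b-3p: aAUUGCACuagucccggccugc
The seed GACUAGA joined miR-279 and miR-996 to miR-286, and the seed AUUGCAC joined miR-92a and miR-92b to miR-310, miR-311, miR-312 and miR-313. bantam carries the symbol mir-ban in the annotation.

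The genomic sequence within 100 bases of the centre is shown for the 3 strongest shared loci at microRNA genes, because these are the places where the signal before a hairpin was highest. All are read from the plus strand of dm6 in RefSeq, and the capitals span the summits of the 3 replicates from the first to the last.
Locus before mir-279, chr3R:29214339-29214539: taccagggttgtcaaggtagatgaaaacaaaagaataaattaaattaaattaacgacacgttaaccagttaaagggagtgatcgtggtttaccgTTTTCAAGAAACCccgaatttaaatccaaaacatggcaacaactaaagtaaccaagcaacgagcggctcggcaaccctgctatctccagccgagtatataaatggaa
Locus before mir-282, chr3L:3250085-3250285: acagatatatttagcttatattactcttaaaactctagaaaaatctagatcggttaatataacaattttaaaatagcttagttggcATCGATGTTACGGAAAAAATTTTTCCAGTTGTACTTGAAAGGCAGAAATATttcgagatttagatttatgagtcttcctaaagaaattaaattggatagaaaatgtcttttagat
Locus before mir-965, chr2L:243897-244097: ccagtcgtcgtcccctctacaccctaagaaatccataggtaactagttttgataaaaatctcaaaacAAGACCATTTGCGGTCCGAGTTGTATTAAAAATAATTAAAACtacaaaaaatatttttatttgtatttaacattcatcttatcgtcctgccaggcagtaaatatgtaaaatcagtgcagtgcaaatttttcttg
The capitals cover 13 bases before mir-279, 51 bases before mir-282 and 42 bases before mir-965. The hairpins of mir-279 and mir-282 lie on the plus strand and that of mir-965 on the minus strand. The share of G and C in these windows was 39.3% before mir-279, 26.4% before mir-282 and 32.8% before mir-965.

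Replicate 1 had 7279 thresholded peaks, replicate 2 had 6769 and replicate 3 had 4608. Summits of the replicates that lay within 150 bp of each other were joined into 9014 loci, of which 3746 had a summit of every replicate and are called shared. Every signal value quoted is one the authors gave a peak, and its scale is not given in the sources used here. It was used as a percentile within each replicate's list, where 100% is the strongest peak. With 1 group no comparison between conditions was possible, so the values below are descriptions without a p-value.

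Each replicate had 41 to 52 peaks inside a microRNA gene or within 2 kb of it. Replicate 1 had 49 such peaks, which was 0.673% of its list, replicate 2 had 52, or 0.768%, and replicate 3 had 41, or 0.890%. The mean was 47.3 ± 5.69 peaks (SD, n = 3), at 38, 43 and 34 genes in replicates 1, 2 and 3. Replicate 3, with the shortest list, had the fewest peaks but the highest share. The median signal of the peaks at microRNA genes was 102, 86.7 and 82.2 in replicates 1, 2 and 3. Over all peaks the medians were 94.0, 95.6 and 97.0. The median at microRNA genes thus lay above that of the whole list in replicate 1 and below it in the other replicates.

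The peaks formed 65 loci at microRNA genes, and 31 of them were shared by the 3 replicates, 9 had summits of 2 replicates and 25 had a summit of 1 replicate. Shared loci made up 47.7% of the loci at microRNA genes and 41.6% of all loci. By this count 31 microRNA genes, 11.9% of the 260 on the arms, had a shared locus, and so did 24 clusters, 12.1% of 198. The same rule gave 21.7% for protein-coding genes and 18.5% for long noncoding and antisense RNA genes, both of which are far longer than a hairpin. For tRNA, snoRNA and snRNA genes, which are short like the hairpins, it gave 10.5%. Of positions taken every 100 bp along the arms, 9.19% had a shared locus within 2 kb, and of those inside protein-coding genes 10.6%. The share of microRNA genes was therefore near that of other short genes and of positions inside genes, and well under that of long genes. The median hairpin gene was 92 bp long and lay 14638.5 bp from the nearest shared locus, and 35 hairpins had none within 50 kb.

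**Figure D1:**
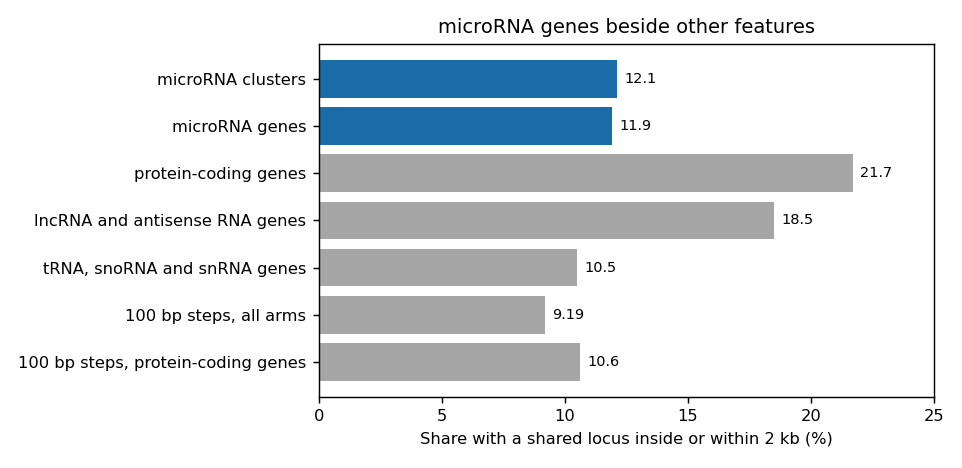
Share of features with a shared locus inside them or within 2 kb, in percent, for microRNA clusters and genes (blue) and for other gene classes and 100 bp steps (grey). The 2 microRNA bars, at 12.1% and 11.9%, stand near the 10.5% of tRNA, snoRNA and snRNA genes and the 10.6% of steps inside protein-coding genes.

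The 2 kb window set a limit that cut close to some members. The member just inside was mir-281-2, 1960 bp from its locus. The first members outside were mir-2498 at 2115 bp, mir-4943 at 2182 bp and mir-1004 at 2332 bp. Of the 198 clusters, 4 had at best a locus of 2 replicates, 13 at best a locus of 1 replicate and 157 no locus at all.

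The signal of the 31 shared loci ranged widely. Their mean percentile over the replicates ran from 14.2% to 99.7%, with a median of 54.4%, beside a median of 66.6% over all shared loci. Of the 31, 12 lay above the median of all shared loci. This order depends on the window: with 5 kb in place of 2 kb the median at microRNA genes was 71.5%, above that of all shared loci. Over these 31 loci the signals of replicates 1 and 2 had a Spearman correlation of 0.83, those of 1 and 3 of 0.80 and those of 2 and 3 of 0.83. The loci were chosen for having a peak in every replicate, and no p-value is given. The summits of the replicates lay a median of 41 bp apart from first to last, and 181 bp at most.

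**Figure D2:**
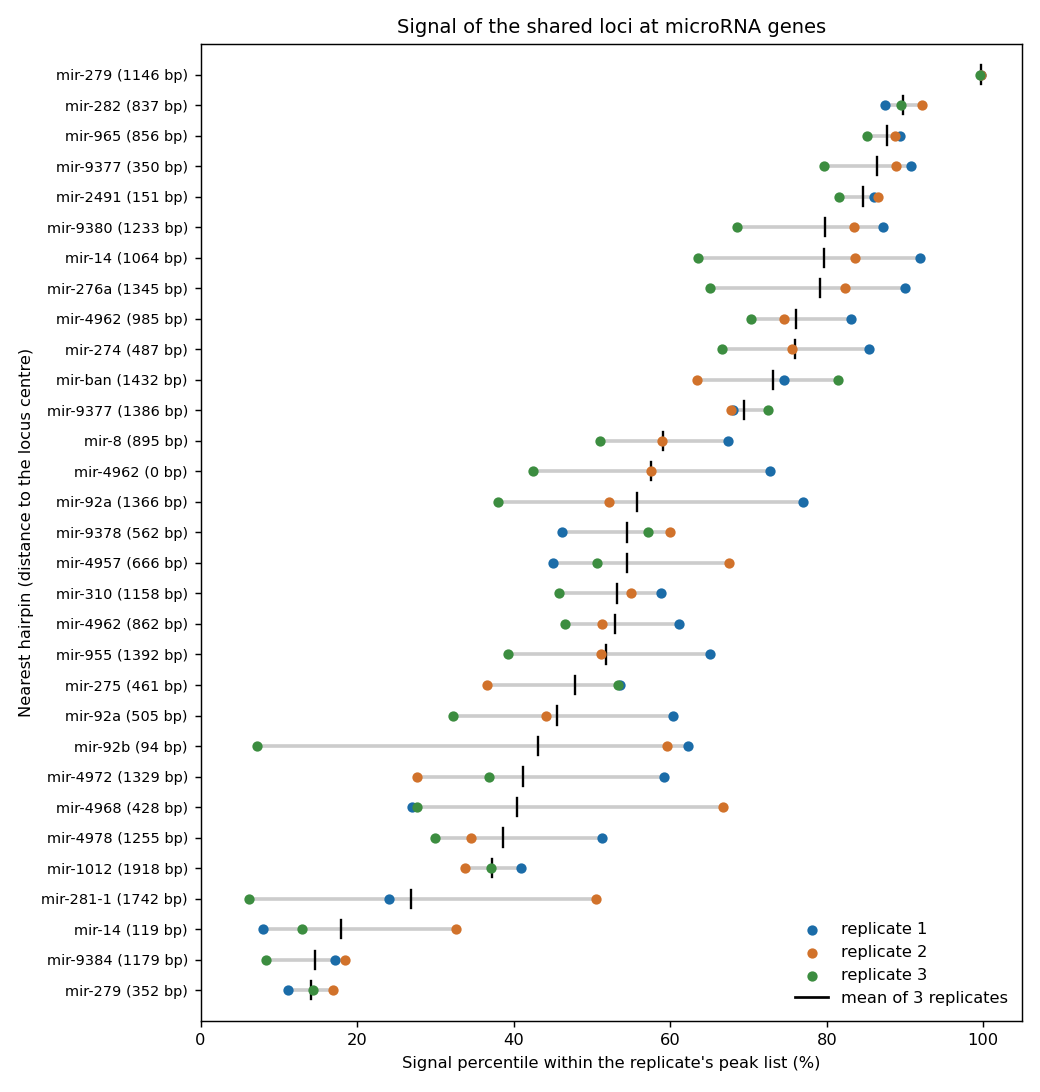
Signal percentile of the 31 shared loci in each replicate (coloured points) with the mean (black bar), in order of the mean, each named by its nearest hairpin and the distance of the locus centre from it. The locus before mir-279 lies near 100% in every replicate, while the locus at mir-92b spans 7.25% in replicate 3 to 62.3% in replicate 1.

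The strongest locus at a microRNA gene lay before mir-279 and mir-996, whose products repress the formation of neurons that sense carbon dioxide in Drosophila. Its signals were 978, 877 and 750 in replicates 1, 2 and 3, with a mean of 868 ± 114 (SD, n = 3). It ranked 19, 18 and 20 in the lists of replicates 1, 2 and 3 and 17 among all 3746 shared loci, so the replicates placed it almost alike. The centre, at position 29214439 of 3R in dm6, lay 123 bp upstream of the only annotated start of lncRNA:CR31044, the primary transcript of both hairpins, and 1146 bp upstream of the mir-279 hairpin. No fixed word was found in its printed window. A second shared locus inside an exon of the same transcript, 352 bp before mir-279, was among the weakest. Its signals were 55.6, 60.8 and 61.5.

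The locus at mir-282 was the second strongest. Its signals were 239, 298 and 251 in replicates 1, 2 and 3, with a mean of 263 ± 31.2 (SD, n = 3), and its percentiles lay between 87.5% and 92.2%. The centre, at position 3250185 of 3L, lay 409 bp upstream of 1 of the 3 annotated starts of the host lncRNA:CR43626, within the host's span, and 837 bp before the hairpin.

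mir-14 suppresses cell death, restrains fat storage and acts in a loop with the ecdysone receptor in flies. The locus 146 bp upstream of its primary transcript lncRNA:CR43651 had signals of 305, 198 and 122, highest in replicate 1 and lowest in replicate 3. A weaker shared locus lay within the transcript, 119 bp before the hairpin, with signals of 50.5, 74.3 and 60.6, so here too the locus at the start was the stronger in every replicate. mir-276a, which acts on dopamine receptor levels in olfactory memory, had a locus 136 bp upstream of a start of lncRNA:CR46006 with signals of 275, 188 and 125. That host has 4 annotated starts, and the bound one lies 1209 bp before the hairpin.

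mir-8, the fly member of the miR-200 family and a regulator of body growth in the fat body, had a locus of middling signal. Its values were 128, 111 and 98.5, at 152 bp upstream of 1 of the 2 starts of lncRNA:CR43650. The hairpins mir-281-1 and mir-281-2 shared a weak locus, with signals of 66.9, 96.1 and 54.7, at 498 bp upstream of a start of asRNA:CR46194 and inside the span of Oda, the ornithine decarboxylase antizyme. Its percentile ran from 6.23% in replicate 3 to 50.6% in replicate 2, a wide spread.

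**Figure D3:**
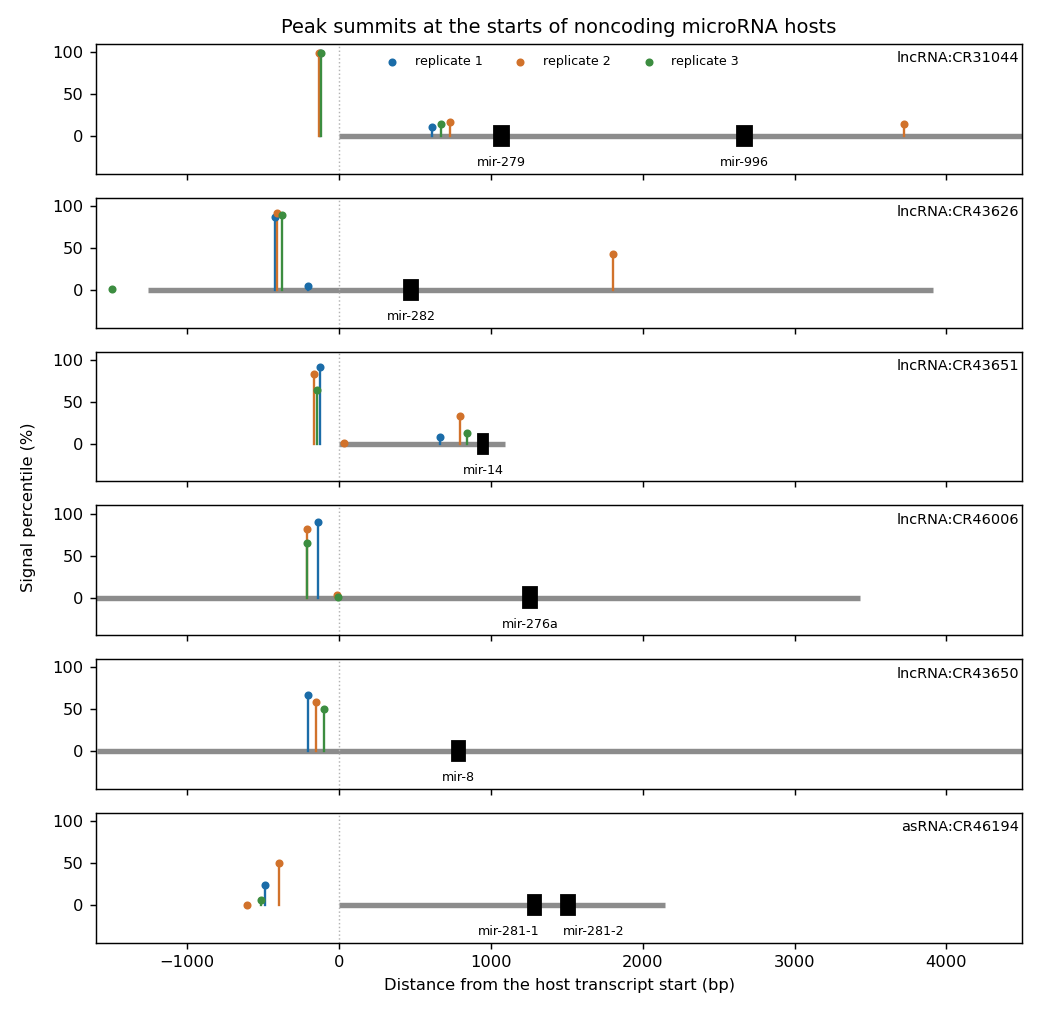
Peak summits around the starts of the 6 noncoding hosts with a shared locus at the start and within 2 kb of the hairpin, against distance from that start in bp along the host's strand. Grey bars are the hosts, black boxes the hairpins, and each stem is a summit of 1 replicate with its signal percentile as height. The tallest stems stand upstream of the start in every host, by 123 to 498 bp for the locus centres.

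Noncoding hosts were examined at their starts whatever the distance to the hairpin. On the arms, 35 noncoding hosts lie on the strand of their hairpin, and only these were counted. Of them, 8 (22.9%) had one of the shared loci at an annotated start, that is, within 500 bp. The share of all long noncoding and antisense RNA genes was 5.88%. The 35 hosts had a median of 1 annotated start. Some of the 8 had more, up to 4 at lncRNA:CR46006, and each start is another place to be counted. All 8 centres lay upstream of the start near them, at a median of 239.5 bp. This was not particular to noncoding hosts. Of 18 protein-coding hosts bound at a start by the same rule, 14 had the centre upstream, and the median over the 18 was 223.5 bp upstream. At lncRNA:CR43626, lncRNA:CR46006 and lncRNA:CR43650 the centre lay inside the host's span, past another of its starts. Besides the 6 mapped, these were lncRNA:CR43857, the host of mir-275, and lncRNA:CR43334, the host of bantam. The locus of lncRNA:CR43857 lay 331 bp upstream of the start and 2306 bp from mir-275, with signals of 158, 156 and 136. That of lncRNA:CR43334 lay 327 bp upstream of a start and 14100 bp from the hairpin, with signals of 128, 102 and 64.9. Of 23 hosts that carry the name of a primary microRNA transcript, 5 were bound at a start. The unbound ones included lncRNA:let7C, the host of let-7, mir-100 and mir-125, and the hosts of mir-1, mir-9a, mir-10, mir-124 and mir-184. These groups were not set against each other in a test.

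bantam promotes growth and blocks cell death in flies by silencing the death gene hid. Besides the distant locus at a start of its host, it had a shared locus in an exon of lncRNA:CR43334, 1432 bp upstream of the hairpin and 1062 bp past another start. The signals there were 152, 120 and 184, and here replicate 3 was the highest. mir-275 and mir-305, the latter known for a role in gut stem cells and lifespan, had a locus in an exon of lncRNA:CR43857, 461 bp before mir-275. Its signals were 99.2, 78.4 and 102.

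Protein-coding genes hosted most microRNA genes, 157 of 260, and 132 of these lay on the host's own strand. Of 137 clusters with such a host 14 had a shared locus (10.2%), against 9 of 36 clusters with a noncoding host (25%) and 3 of 32 with a member without a host (9.38%). A cluster whose members differ in host counts in more than 1 class: mir-92a and mir-92b count under both kinds of host, and mir-275 and mir-305 also count as without a host. The 18 shared loci with a protein-coding host lay at a promoter in 5 cases, and the 11 with a noncoding host in 6. Their median percentiles were 55.1% and 59.1%.

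The strongest of these lay in introns of the host. At mir-965, which acts in the growth and migration of the cells that form the adult abdomen, the signals were 262, 246 and 208, in an intron of kis, a chromatin remodeller, 856 bp before the hairpin. At mir-9377 they were 285, 246 and 173, in an intron of Tis11, which binds and destabilises messenger RNAs, 350 bp past the hairpin. A second locus in that intron, 1386 bp past the hairpin, had 130, 131 and 145. At mir-2491 they were 223, 222 and 185, only 151 bp from the hairpin, in an intron of fog, a secreted signal of gastrulation, where the span of CG42346 also overlaps. In these 3 introns replicate 3 had the lowest value at the strongest locus, and none of the 3 strongest loci fell under a percentile of 79.6%.

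Other loci with a protein-coding host lay at starts. mir-9380 lies in CG7352 on the opposite strand, and its locus was 196 bp past a start of Atg13, a gene of autophagy, with signals of 235, 197 and 134. mir-4962, inside Tlk, the tousled-like kinase, had 3 shared loci. The strongest, 338 bp past a start of Tlk, had signals of 198, 153 and 139. The second had its centre within the hairpin itself, the only one of the 31 to do so, with 145, 108 and 87.0. The third, 862 bp past the hairpin, had 113, 97.4 and 92.2. In each of the 3, replicate 1 was the highest and replicate 3 the lowest.

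mir-274 lies in an intron of CG32085 on the opposite strand, and its locus 487 bp upstream had signals of 216, 158 and 129. At mir-9378, in an intron of CG17124, the signals were 88.9, 113 and 108. At mir-4957, on the opposite strand of Top1, DNA topoisomerase 1, they were 87.5, 130 and 98.1, at 334 bp past a start of Top1. The replicates did not share an order here: replicate 1 was the highest at mir-274 and the lowest at the other loci.

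The family with the seed AUUGCAC, printed above, was the only one of 8 seeds with 3 or more members in which every member had a shared locus. Its 6 members lie in 2 clusters and so do not count as 6 separate cases. The share of all clusters was 12.1%, and no test was made. The count also rests on the window. The nearest shared locus lay 94 bp from mir-92b, 505 bp from mir-92a and 1158 to 1596 bp from mir-310 to mir-313. Within 500 bp, only mir-92b had one. mir-92a lies in jigr1 and mir-92b, which acts on the muscle factor Mef2, in lncRNA:CR45917 near the end of jigr1. The loci past mir-92a had signals of 165, 98.5 and 82.2 at 220 bp upstream of a start of jigr1, and of 111, 87.4 and 76.1 at 141 bp upstream of another. The locus 94 bp past mir-92b, in a 3′ UTR of jigr1, had 116, 112 and 55.7, so its rank was low in replicate 3 only. mir-310, mir-311, mir-312 and mir-313 share a single locus, 1158 bp past mir-310 and 462 bp upstream of a start of qsm, with signals of 108, 103 and 91.2. Of the seed GACUAGA, 2 of 3 members had a shared locus. The largest family, of 14 genes with the seed AUCACAG that includes the mir-2, mir-6 and mir-13 genes, mir-5, mir-11 and mir-308, lies in 7 clusters and had none. Beside 12.1% of all clusters, 0 of 7 is no result about the family. In all, 6 of the 8 seeds had no member at a shared locus, and 2 of those 6 belong to opposite arms of the same mir-10404 genes.

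The remaining clusters with a shared locus were mir-955, mir-1012, mir-4968, mir-4972, mir-4978 and mir-9384. mir-955 has no host, and its locus was 425 bp past a start of CG14968, with signals of 122, 97.2 and 83.6. The others lay in introns of Lerp, Mob2, for, mam and tacc, with mean percentiles from 14.6% at mir-9384 to 41.2% at mir-4972. All 5 lay downstream of the hairpin.

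**Figure D4:**
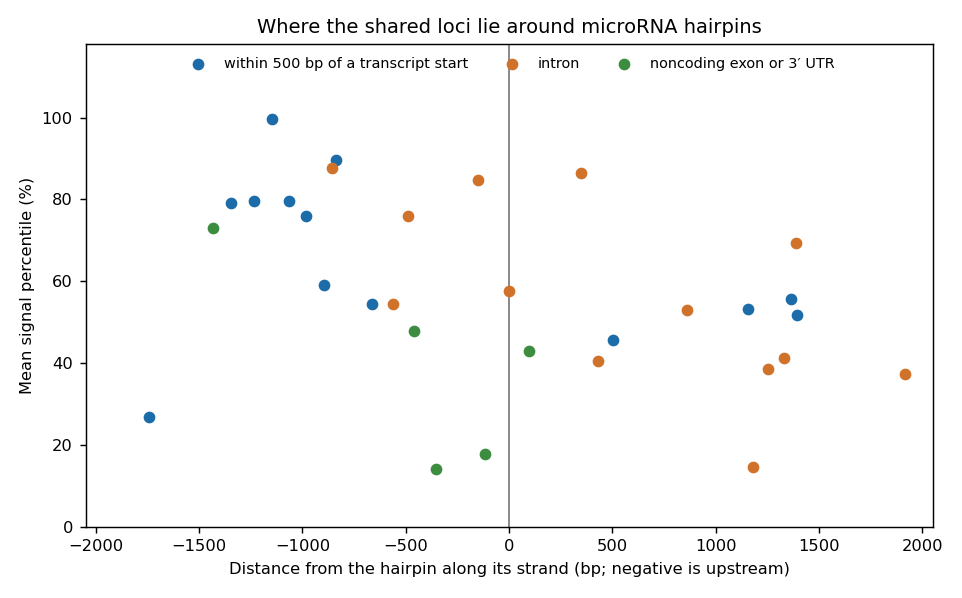
Mean signal percentile of the 31 shared loci against the distance of the centre from the nearest hairpin along the hairpin's strand, in bp, coloured by annotation. Of these loci 17 lie upstream of the hairpin, 13 downstream and 1 inside it. The highest point, at 99.7%, is the locus 1146 bp upstream of mir-279.

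By position, the 31 loci lay a median of 895 bp from the nearest hairpin, and 9 of them lay within 500 bp. Within 500 bp of a transcript start lay 13 of the 31, or 41.9%, beside 31.8% of all shared loci. With a window of 500 bp around the hairpin the share was 0% of 9 loci, below that of all shared loci. Introns held another 13, or 41.9%, beside 49.6%. Noncoding exons held 4, or 12.9%, beside 1.12%, and 1 lay in a 3′ UTR. Those 4 lay in noncoding hosts of the hairpins, which hold 52 of the 260 microRNA genes. How far choosing loci near hairpins bears on this share was not tested. No locus was intergenic, beside 16.4% of all shared loci, and only 51 of the 260 microRNA genes lie outside a host. By arm, the clusters with a shared locus were 4 of 39 on 2L, 5 of 40 on 2R, 6 of 30 on 3L, 5 of 48 on 3R, 4 of 39 on X and 0 of 2 on chromosome 4. Shares of other genes or positions on each arm are not given here, so these counts are no result about microRNA genes.

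Protein-coding hosts were also bound at starts far from the hairpin. Hosts on the opposite strand of the hairpin, such as Top1, were left out here. Of 122 protein-coding hosts on the hairpin's strand, 18 (14.8%) were bound at a start by the same rule, beside 9.06% of all protein-coding genes. Hosts had a median of 2 annotated starts and all genes 1, so a host has more places to be counted. In 16 of the 18 the locus lay over 2 kb from the hairpin. The strongest was at Btk, a Tec-family kinase and the host of mir-2b-1, with signals of 988, 808 and 716 at 152 bp upstream of a start and 19162 bp from the hairpin. spi, which encodes a ligand of the epidermal growth factor receptor and hosts mir-2a-1, mir-2a-2 and mir-2b-2, had 361, 438 and 285 at 230 bp upstream of a start. Others were CG5953 with mir-4943, for with mir-4972, MRP with mir-9382 and bun with mir-967, at mean percentiles of 97.5%, 96.3%, 94.7% and 91.7%. A locus at a start of a host of several starts need not belong to the transcript that carries the hairpin.

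Groups of microRNA genes with known roles were counted next, beside 11.9% of all microRNA genes and 12.1% of all clusters. Members of a group often share a cluster and a locus, so their genes are not separate cases. Of 6 genes in 4 clusters tied to ecdysone and developmental timing, mir-14 and mir-8 had a shared locus, while let-7, mir-100 and mir-125 lay 5459, 6037 and 5146 bp from the nearest one and mir-34 lay 13175 bp away. Of 10 neural and sensory genes in 9 clusters, mir-279, mir-996 and mir-276a had one, and mir-9a, mir-124, mir-184 and mir-263a, annotated as mir-bft, did not. Of 4 muscle genes in 3 clusters, mir-92a and mir-92b, in 1 cluster, had one. mir-1 lay 7300 bp and mir-133 lay 28866 bp from the nearest. Of 23 genes of growth, cell death and metabolism in 13 clusters, mir-282, mir-275 and mir-305 had one. None of 4 genes, in 3 clusters, of the homeotic complexes had one: mir-10 lay 46433 bp and mir-iab-4 lay 51637 bp away. Of 9 genes of 2 early embryonic clusters, mir-310 to mir-313, in 1 cluster, had one. The members of the mir-309 cluster in that group lay between 28894 and 29442 bp away.

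Genes that make and use microRNAs were counted as the rest of the pathway, with some of RNA interference, such as r2d2 and Dcr-2, among them. Of 17, 2 were bound at a start, AGO1 and r2d2, and 5 had a shared locus inside the gene or within 2 kb. The shares of all protein-coding genes, 9.06% and 21.7%, are to be read beside these counts. At AGO1, the Argonaute that carries most microRNAs, the signals were 151, 101 and 134, at exactly 500 bp past a start. At r2d2, the partner of Dicer-2 in RNA interference, they were 106, 108 and 89.5 at 183 bp upstream, but the same locus lay 94 bp past a start of Herp. The locus at pasha, the partner of Drosha, had 517, 384 and 412 and lay 27 bp upstream of a start of Mnat9. That at loqs, the partner of Dicer-1, had 174, 174 and 140 and lay 115 bp upstream of a start of Ing5. brat, a translational repressor, had 5 shared loci, the strongest with 652, 529 and 391 at 721 bp upstream of a start. No shared locus lay at the other 12, among them drosha, Dcr-1, gw, Hen1, Dcr-2 and AGO2.

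The 9 loci of 2 replicates had mean percentiles from 8.64% to 58.3%. The 5 strongest lay at mir-2492 (138 in replicate 1 and 90.1 in replicate 2), at mir-4978, at mir-4968 in 2 places, and at mir-2496. After mir-2492, with a mean percentile of 58.3%, the others lay between 33.7% and 40.7%. None of the 5 had a summit of replicate 3 joined to it, while each of the weaker loci of 2 replicates had one. At mir-4968, replicate 3 had a peak with a signal of 55.9 whose summit lay 495 bp from the hairpin, near the locus at 711 bp but beyond the joining distance. The list of replicate 3 is the shortest, and whether its length plays a part was not tested. Of the clusters, mir-2492, mir-2496, mir-9370 and mir-317 had a locus of 2 replicates and no shared one. In the authors' conservative list, made from the 3 replicates together, stood all 31 shared loci at microRNA genes, all 9 of 2 replicates and 12 of 25 of 1 replicate. That list rests on the same replicates, so the overlap is no separate support. The same shares over all loci are not given here, so the counts say nothing particular about microRNA genes.

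Of 6 short sequence words sought on both strands within 100 bp of the centres, none was held by most loci at microRNA genes. GAGAG, the core of the GAGA factor's site, was in 8 of 31 windows (25.8%) and in 23.1% of the other 3715 shared loci. CAGCTG, an E-box, was in 2 (6.45% beside 5.09%) and CACGTG, another E-box, in 2 (6.45% beside 1.29%). CAGGTAG, the site of Zelda, was in 1 (3.23% beside 0.565%). AGGTCA, a nuclear receptor half-site, was in 0 (beside 3.50%), as was TATCGATA, the DREF site (beside 0.646%). With 31 windows, 1 locus more or less moves a share by over 3 percentage points. CAGGTAG and AGGTCA share the letters AGGT, and each was counted on its own.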

How the data were processed

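The authors deposited, for each of 3 replicates, a thresholded and a ranked peak list on dm6, per the labels and the README texts, and further lists for the whole series. Each deposited peak has a signal, a scaled score and a summit offset, and in the ranked lists the authors added the −log10 of a global irreproducible discovery rate (IDR). The smallest score in the thresholded lists was 830, which matches an IDR of 0.01. Which aligner and which peak caller made them is not given in the sources used here. Without read counts the sequencing depth is unknown, and no counting interval can be given. The labels name biological replicates but no separate cultures or crosses.

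Summits within 150 bp of each other were joined, and a locus with all 3 replicates was called shared. Its centre is the median summit. Gene models came from Ensembl release 115 on the same build, without transposable elements and 485 entries for mature products. The places of 481 mature products were the same in RefSeq and Ensembl. A host is the shortest gene that contains the whole hairpin, with genes on the hairpin's strand taken before those on the other. A promoter is within 500 bp of a transcript start, and the strength of a locus is its mean signal percentile. Every cluster with a shared locus is named, the 15 strongest with all values, together with members of 6 groups and of the pathway. The mature sequences shown are a selection from the stronger clusters and the seed family AUUGCAC, limited to well-known arms. The members and lists were chosen with earlier results of these data known. The joining was tested on simulated data. Python 3.11.15, numpy 2.4.6, pandas 2.3.3 and matplotlib 3.10.9 were used. Alternatives varied the window, the joining distance, the peak list and the replicates.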

Additional observations from a re-analysis of the deposited data

How the results depend on the processing

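The counts moved with the window, the peak list and the joining distance. With 500 bp, 9 clusters, 9 genes, 9 loci and 9 hosted clusters remained in the count, with a promoter share of 0%, which turns its order against the 31.8% of all shared loci. With 5 kb, these counts were 50, 62, 84 and 46, and the median percentile was 71.5%, which turns its order against the 66.6% of all shared loci. With the stronger 50% of each list they were 12, 12, 13 and 12, with a median of 79.7%, which taking stronger peaks raises by its construction, a promoter share of 53.8% and 1 pathway gene. With the authors' conservative list, chosen after seeing the data, they were 43, 54, 79 and 40, with a promoter share of 36.7%. The promoter share was 47.6% with joining at 50 bp, 43.75% at 300 bp and 43.75% with overlapping peak intervals. Joining at 50 bp also gave 17 clusters, 22 genes, 21 loci, 15 hosted clusters and 1 pathway gene. Leaving out 1 replicate at a time gave promoter shares from 39.4% to 42.9% and 1 to 2 pathway genes, the 1 without replicate 3. Other causes were not tested. In all, 52 of 81 values stayed within 1.5 times a count or within 1 SD of a value over the replicates. The 52 include the ranked lists cut at the IDR of the main lists, which again gave 24 clusters, 31 genes and 31 loci. Because the threshold is the same, little change was possible there, and those values do not show how firm the counts are. The 93 signals of single loci without 1 replicate all lay within 1 SD of the mean of the 3 replicates. The mean of 2 of 3 replicates always lies within that limit, whatever the signals. How firm the signal of a single locus is was therefore not tested by leaving out a replicate. Adding bantam as a member was not run, since the rule already holds it. No paired analysis was possible because there is 1 group. Unknown depth limits what a missing peak can show.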
